A study of Mus musculus with 32 samples.

Results

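The cytosolic ribosomal protein genes of dendritic cells grown from mouse bone marrow were followed in 2 genotypes over 6 h of lipopolysaccharide (LPS). Members were the entries whose symbol has the form Rpl or Rps with a number, the stalk genes Rplp0, Rplp1 and Rplp2, and Rpsa, without the Rps6k kinases. This gave 84 of 22216 genes: 32 of the small subunit, 43 of the large subunit, 3 of the stalk, and 6 named after another ribosomal protein gene (Rpl3l, Rpl7l1, Rpl10l, Rpl22l1, Rpl39l and Rps27l). The cells came from C57BL/6 bone marrow cultured with the cytokine GM-CSF until day 9. RNA sequencing was done on double-knockout (dKO) cells, which lack LMP7 and MECL1, the immunoproteasome subunits encoded by Psmb8 and Psmb10, and on wild-type (WT) cells. Each genotype was harvested without LPS (0 h) and after 1, 2 and 6 h of LPS at 1 µg/mL, which activates them through the receptor TLR4. The 8 groups held 4 libraries each, 32 in all. Both deletions were present in every dKO group, so neither subunit can be looked at alone, and the labels do not say whether the replicates came from separate animals, so p-values measure only the spread between these libraries.

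A ribosome is built of a small and a large subunit, each a scaffold of ribosomal RNA holding a fixed set of proteins. Growing cells make these proteins in matched amounts from some of their most abundant mRNAs, and most of those mRNAs begin with a run of pyrimidines that ties their translation to the mTOR kinase. The mouse genome also carries many processed pseudogenes of these genes, near-identical copies of the mRNA set elsewhere in the genome, so that a sequencing read from one of these mRNAs can match several places.

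The deposited values were RPKM, the aligned reads of a gene scaled to its length and to the library. Libraries held 1.27 to 1.87 Gb of aligned bases. Psmb8 lay between 2.67 and 7.42 RPKM in the 16 dKO libraries, against 150.3 to 312 RPKM in the 16 WT libraries, and Psmb10 between 2.37 and 17.1 RPKM in dKO against 41.6 to 131 RPKM in WT. The summed level of 6 dendritic cell markers was 8192 to 10882 RPKM in dKO 0 h and 9144 to 10715 RPKM in WT 0 h. Macrophage markers (6 of 7 genes with an entry) summed to 683 to 1432 RPKM in dKO 0 h and 565 to 624 RPKM in WT 0 h, and granulocyte markers (6 of 7) to 198 to 398 RPKM in dKO 0 h and 551 to 706 RPKM in WT 0 h. At 6 h the dendritic cell markers summed to 9731 to 10582 RPKM in dKO and 11329 to 13145 RPKM in WT, the macrophage markers to 561.5 to 1461 RPKM in dKO and 379 to 497 RPKM in WT, and the granulocyte markers to 214 to 391 RPKM in dKO and 406 to 619 RPKM in WT. The genotypes overlapped in the dendritic cell sum at 0, 1 and 2 h and not at 6 h, in the macrophage sum at 2 h alone, and in the granulocyte sum at no time. Lymphocyte and erythroid markers summed to less than 3 RPKM in every group, with Hba-a1 listed at 0. The part of these other cell types in the results on genotype was not tested. In such bulk samples fewer cells of a type and less RNA per cell cannot be told apart. When each library was correlated with the 4 WT group means, all 16 WT libraries lay nearest to their own time, whereas 5 dKO libraries were closest to the WT mean of a different time: 0 h replicate 2, 1 h replicate 2, 2 h replicates 2 and 4, and 6 h replicate 4. They were kept under their labels, and calls without them are given beside those with all libraries. Since these libraries were picked by their levels in the same data, p-values of the fit without them can be too small.

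Rpl3 and Rpl29, both of the large subunit, were nearly absent from every dKO library. Rpl3 (chr15:79908211-79913836, mm9) encodes a protein close to the peptidyl transferase centre, and Rpl29 (chr9:106331870-106333898, mm9) a small protein of the subunit surface. Over all times Rpl3 lay between 0.342 and 2.63 RPKM in the 16 dKO libraries, against 36.6 to 66.2 RPKM in the 16 WT libraries. Rpl29 lay between 0.287 and 1.06 RPKM in dKO, against 23.4 to 35.7 RPKM in WT. No dKO library of either gene came near a WT library. Since these 2 genes were picked for their low level in dKO, their difference between the genotypes is a description and no test of it is given.

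At 0 h Rpl3 had 2.63, 1.23, 2.26 and 2.08 RPKM in the dKO libraries, against 65.0, 64.2, 66.2 and 64.3 RPKM in the WT libraries. After 1 h of LPS it had 1.20, 1.08, 0.576 and 0.691 RPKM in dKO and 51.7, 55.5, 49.5 and 50.2 RPKM in WT. The dKO mean was 3.16% of the WT mean at 0 h and 1.72% at 1 h. At 2 h Rpl3 stood at 0.685, 2.35, 0.949 and 0.508 RPKM in dKO and 46.1, 50.001, 46.4 and 41.3 RPKM in WT. At 6 h the values were 0.342, 0.660, 0.414 and 0.848 RPKM in dKO and 39.0, 36.6, 39.8 and 39.4 RPKM in WT, a dKO mean at 1.46% of the WT mean. The highest dKO value at 2 h, 2.35 RPKM, belonged to replicate 2, which lay nearest to the WT 0 h libraries, and the highest at 6 h to replicate 4, which lay nearest to WT 2 h.

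Rpl29 had 1.01, 0.800, 0.760 and 0.579 RPKM in dKO at 0 h, against 34.7, 35.6, 35.7 and 29.97 RPKM in WT. At 6 h it had 0.478, 0.856, 1.06 and 0.672 RPKM in dKO and 23.6, 24.3, 25.3 and 25.5 RPKM in WT. Its dKO mean was 2.31%, 2.69%, 2.52% and 3.11% of the WT mean at 0, 1, 2 and 6 h, with no overlap of the genotypes at any time. In aligned bases the dKO libraries held 711 to 6422 on Rpl3 and 342 to 1388 on Rpl29, against 92685 to 190130 and 29224 to 49026 in the WT libraries, so the dKO values rest on little sequence.

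**Figure D1:**
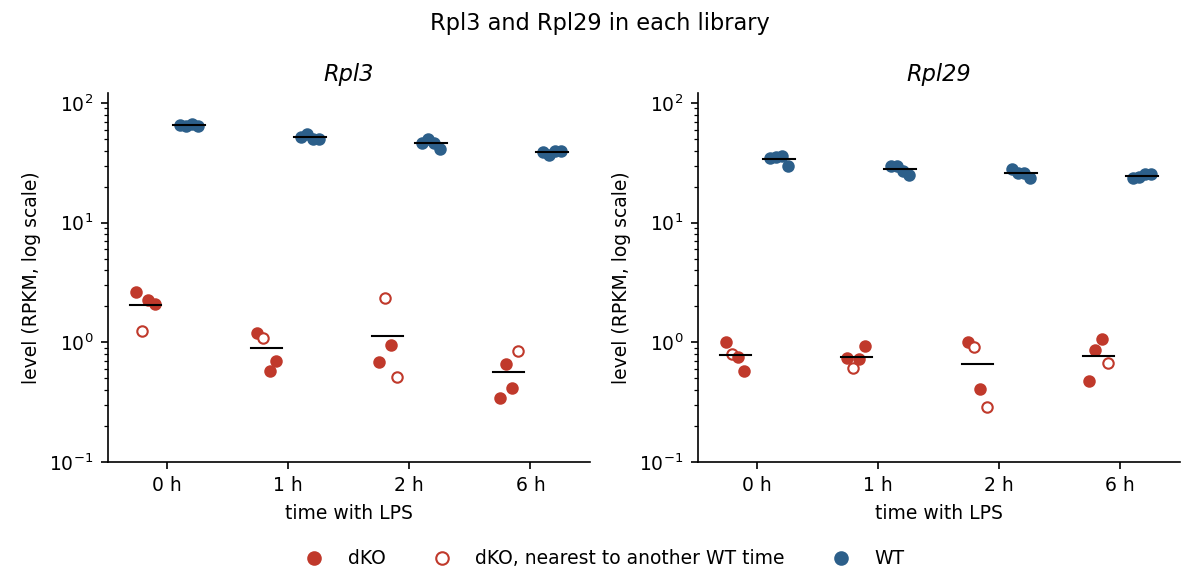
Level of Rpl3 and Rpl29 (RPKM, log axis) in each library by time with LPS. Red points are dKO and blue points WT libraries, open points are the 5 dKO libraries nearest to another WT time, and black lines are group means of 4 libraries. All dKO values lie at or below 2.63 RPKM for Rpl3 and 1.06 RPKM for Rpl29, and all WT values at or above 36.6 and 23.4 RPKM.

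Both genes have near-identical copies. Of the 100-base stretches of the Rpl3 transcript, 79.4% also occurred in transcripts of 7 other annotated genes, all of them pseudogenes (GENCODE M21, GRCm38), and of those of Rpl29 50.1% occurred in 27 other genes, 24 of them pseudogenes. The first 60 bases of the coding sequence show how close the copies are. They are shown 5′ to 3′, positions are counted from 1 at the first base of the start codon, and a capital marks a base that differs from the coding gene. Rpl3-ps1 (chrX:13202571-13203780, plus strand, GRCm38) carries the single change C57A, and Gm5879 (chr6:87764996-87766204, minus strand, GRCm38) none.
Rpl3: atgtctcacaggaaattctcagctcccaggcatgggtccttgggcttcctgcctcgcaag
Rpl3-ps1: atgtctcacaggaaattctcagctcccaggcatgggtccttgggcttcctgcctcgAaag
Gm5879: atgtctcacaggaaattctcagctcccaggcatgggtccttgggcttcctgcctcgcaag
Gm6344 (chr13:55085777-55086259, plus strand, GRCm38) and Gm13841 (chr5:115801677-115802159, minus strand, GRCm38), 2 processed pseudogenes of Rpl29, matched its coding start at every base.
Rpl29: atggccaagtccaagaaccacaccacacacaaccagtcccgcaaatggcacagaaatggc
Gm6344: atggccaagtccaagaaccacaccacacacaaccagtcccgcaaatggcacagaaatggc
Gm13841: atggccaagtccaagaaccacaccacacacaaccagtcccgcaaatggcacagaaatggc

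None of the 26 genes that share at least one 50-base stretch with Rpl3 has an entry in the deposited tables. Of the 84 genes that share one with Rpl29, 4 have an entry. The closest of these was Uimc1, a gene of the DNA damage response, which held 49.2% of the 50-base stretches of Rpl29 and lay between 8.22 and 18.1 RPKM in the 16 dKO libraries and between 8.63 and 18.9 RPKM in the 16 WT libraries. The 2 ranges of Uimc1 overlapped. Whether reads of these genes went to copies in one genotype was not tested.

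A high shared share was also found among members whose level was alike in both genotypes at 0 h. Rpl10 shared 91.6% of its 100-base stretches with other genes and averaged 60.4 ± 4.56 RPKM in dKO 0 h and 57.6 ± 1.33 RPKM in WT 0 h (SD, n = 4 each). Rpl5, which carries 5S ribosomal RNA into the large subunit, shared 91.1% and averaged 14.9 ± 1.41 and 14.3 ± 0.398 RPKM in these groups. For Rps12, a small-subunit gene with 88.9% shared, the averages were 51.9 ± 4.35 and 47.9 ± 4.71 RPKM. None of these genes was called at any time with all libraries. Without the 5 libraries near another time Rps12 was called higher in dKO at 1 h (log2 change 0.35, limma adjusted p = 0.0112). In that fit Rpl5 was called higher at 1 h (0.22, adjusted p = 0.0244) and 6 h (0.21, adjusted p = 0.0275). Over the 80 tested members without Rpl3 and Rpl29, the Spearman correlation of the shared share with the log2 change of dKO over WT was 0.03, 0.17, -0.15 and -0.09 at 0, 1, 2 and 6 h, a description across genes of the same libraries.

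The shared share went with the measured level of a member. Of 77 members, without the 6 paralogue-named ones and Rps4y2, the 25 with a share under 30% had a median of 508 RPKM (mean over 32 libraries), the 32 with 30% to under 60% had 112 RPKM, and the 20 with 60% or more had 35.1 RPKM (Spearman correlation -0.52 across these genes, which are not independent). At one end Rpl32, with no shared stretch, averaged 1100.4 RPKM. At the other, Rps6 shared 83.6% and averaged 2.46 RPKM. The part of read placement in these levels was not tested.

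**Figure D2:**
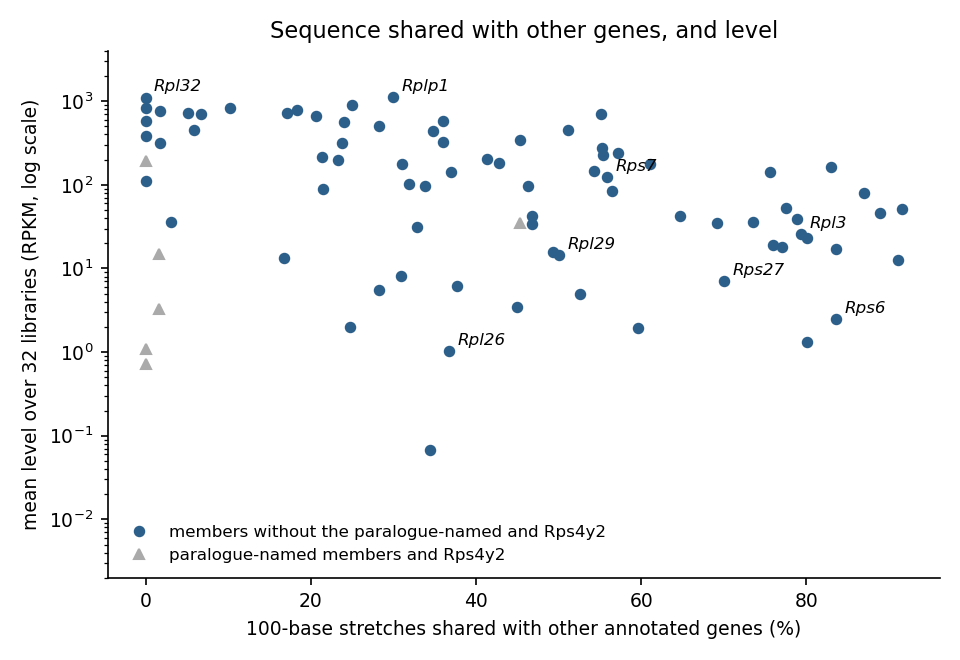
Share of a member's 100-base transcript stretches found in other annotated genes (x axis, percent) against its mean level over 32 libraries (y axis, RPKM, log scale). Blue points are members and grey triangles the paralogue-named members and Rps4y2, with Rpl10l, listed at 0, left out. Among the blue points, members with larger shared shares tend to lie lower: the median was 508 RPKM under 30% and 35.1 RPKM at 60% or more.

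The tested genes nearest to Rpl3 and Rpl29 on their chromosomes were also read. Beside Rpl3, Apobec3, a cytidine deaminase that restricts retroviruses, averaged 9.83 ± 2.60 RPKM in dKO 0 h and 46.4 ± 3.53 RPKM in WT 0 h (SD, n = 4 each) and was lower in dKO at all 4 times (log2 change -2.46 to -2.15). Cbx7 and Pdgfb on the same side, and Syngr1, Tab1 and Smcr7l on the other, had log2 changes between -0.50 and 0.45 at 0 h, none of them called. Of these 5, Cbx7 alone was called at a later time (-1.06 at 6 h, limma adjusted p = 0.0192). Beside Rpl29, Alas1, the first enzyme of heme synthesis, had log2 changes of -1.58 to -0.94 in dKO over the 4 times, and Poc1a, a centriole protein gene, of -1.14 to -0.86. The gene beyond them, Dusp7, was called lower at 0 h (-1.37, limma adjusted p = 0.0239) and at no later time. On the other side Acy1, Abhd14a and Abhd14b lay between -0.36 and -0.06 at 0 h and were called at no time. Across the 32 libraries the gene whose log2 level was most alike to that of Rpl3 was Rpl29 (Pearson correlation 0.986), then Tcea3, Akr1e1, Vill and Acp1 (0.985 to 0.972). For Rpl29 they were Tcea3 (0.992), Rpl3, the deleted Psmb8 (0.982), Akr1e1 and Anxa8. These correlations are descriptions: the 32 points fall into the 2 genotypes, which both genes separate.

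The other members differed little between the genotypes. Of the 84, 82 were tested (the 2 others, among them Rpl10l, listed at 0 in all libraries, did not pass the filter on low values), and of the 80 tested besides Rpl3 and Rpl29, 3 were called at 0 h, all lower in dKO, where 6.84% of all 11154 tested genes were called (0.932% higher and 5.91% lower). A call is an adjusted p below 0.05 in limma, Benjamini-Hochberg over all tested genes. At 1 h 8 were called (5 higher and 3 lower, against 10.9% of all genes, 1.84% higher and 9.02% lower), at 2 h 9 (3 higher and 6 lower, against 12.4%, 5.15% higher and 7.24% lower), and at 6 h 5, all lower (against 14.8%, 4.55% higher and 10.2% lower). The median log2 change of dKO over WT was 0.04, 0.09, 0.11 and -0.01 for the 82 members at 0, 1, 2 and 6 h, beside -0.19, -0.18, 0.09 and -0.15 for all tested genes. The 80 ranged from -0.81 to 0.20 at 0 h and from -1.12 to 0.49 at 6 h. Non-overlapping genotypes were found for 8, 22, 9 and 15 of the 80 at the 4 times, beside 26.5%, 32.1%, 13.4% and 31.1% of all tested genes.

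Leaving out the 5 libraries near another time raised the counts among the 80 to 8 at 0 h (4 higher, 4 lower), 24 at 1 h (19 higher, 5 lower), 13 at 2 h (6 higher, 7 lower) and 17 at 6 h (4 higher, 13 lower), while the shares of all genes called became 26.2%, 39.2%, 33.1% and 46.9%. Of all genes 6.75%, 9.8%, 9.29% and 13.9% were then higher and 19.4%, 29.4%, 23.8% and 33.0% lower. All members called with every library were called in this fit too. Single libraries moved the counts at 1 and 2 h. Counted with Rpl3 and Rpl29, the calls at 1 h were 10 with all libraries and 3 to 6 without any one of the 8 libraries, and the 11 at 2 h became 5 to 7 without any one of the 4 WT libraries or dKO replicate 2 and 19 without dKO replicate 4.

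**Figure D3:**
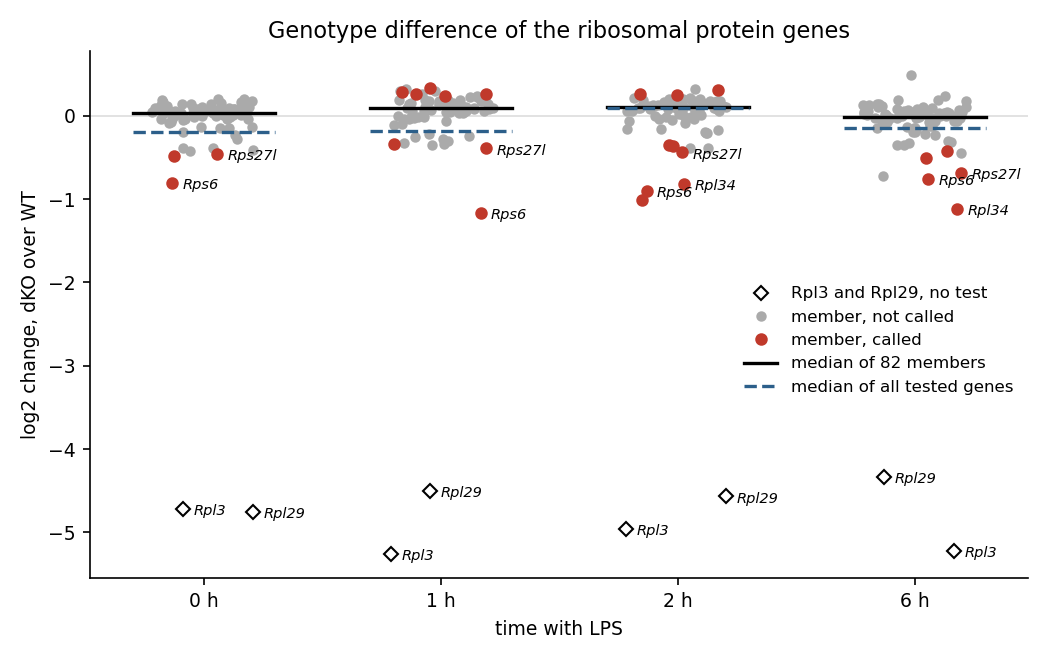
Log2 change of dKO over WT (y axis) of the 82 tested members at each time with LPS (x axis), 1 point per member. Red points were called (adjusted p below 0.05), grey points were not, and open diamonds are Rpl3 and Rpl29, shown without a test. The black line is the median of the members and the dashed line the median of all 11154 tested genes. Rpl3 and Rpl29 lie below -4 at each time, and the other members between -1.17 and 0.49.

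Of the 80, 3 were called lower in dKO at all 4 times in the deposited scaling: Rps6, Rps7 and Rps27l. With quantile normalization Rps6 was still called at each time, and Rps7 and Rps27l at 0 and 6 h. Rps6, the small-subunit protein phosphorylated by the S6 kinases, had 2.39, 1.92, 1.94 and 2.48 RPKM in dKO at 0 h, against 4.26, 5.15, 3.89 and 3.53 RPKM in WT. At 1 h it had 1.84, 1.11, 1.35 and 1.19 RPKM in dKO and 4.13, 3.68, 3.34 and 3.52 RPKM in WT. The 2 genotypes did not overlap at these times or later. Its log2 change was -0.81 ± 0.16 (SE, limma adjusted p = 0.00118) at 0 h, -1.17 ± 0.16 (adjusted p = 6.49e-06) at 1 h, -0.90 ± 0.16 (adjusted p = 0.000206) at 2 h and -0.76 ± 0.16 (adjusted p = 0.00134) at 6 h. The entry for Rps6 spans 1394 measured bases, against 878 in the annotated transcript. It rests on 2457 to 7324 aligned bases in dKO libraries and 5461 to 13374 in WT libraries. Like Rpl3, it has pseudogenes that match its coding start base for base: Rps6-ps4 (chr2:75191073-75191822, minus strand, GRCm38) and Gm8172 (chrX:69605496-69606245, minus strand, GRCm38).
Rps6: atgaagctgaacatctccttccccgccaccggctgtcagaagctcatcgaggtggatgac
Rps6-ps4: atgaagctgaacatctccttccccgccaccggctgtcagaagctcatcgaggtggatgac
Gm8172: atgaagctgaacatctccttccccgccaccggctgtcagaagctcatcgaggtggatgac

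Rps7, a small-subunit protein that also binds MDM2, the ligase that degrades p53, had 129.8, 105, 126 and 104 RPKM in dKO at 0 h, against 167, 164, 169.6 and 149 RPKM in WT. At 6 h it had 89.2, 105, 92.9 and 101 RPKM in dKO and 137, 116, 134 and 133 RPKM in WT. Groups were apart at 0, 1 and 6 h and overlapped at 2 h. The log2 change was -0.48 ± 0.10 at 0 h (limma adjusted p = 0.00215) and -0.42 ± 0.10 at 6 h (adjusted p = 0.00438), with -0.34 at 1 h and -0.35 at 2 h. The calls at 1 and 2 h were each lost without any one of 4 libraries, with adjusted p up to 0.0838 and 0.0888. Under median-of-ratios scaling its change stayed negative and was called at 2 h alone (adjusted p = 0.267, 0.597, 0.016 and 0.166 at the 4 times). With quantile normalization the calls at 1 and 2 h were lost (adjusted p = 0.129 and 0.217). Rps7 shared 55.9% of its 100-base stretches with 6 pseudogenes.

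Rps27l encodes a close paralogue of RPS27 and is known as a p53 target. It shared no 100-base stretch with another gene. At 0 h it had 136, 119.6, 117 and 122 RPKM in dKO, against 172, 183, 163 and 162 RPKM in WT. At 6 h the levels were 235, 196, 245 and 171 RPKM in dKO and 359, 319, 309 and 369 RPKM in WT. All dKO libraries lay below all WT libraries at both times. The log2 change was -0.46 ± 0.12 at 0 h (limma adjusted p = 0.0207) and -0.69 ± 0.12 at 6 h (adjusted p = 0.000272). Its calls at 0, 1 and 2 h are the weaker ones: leaving out single libraries gave adjusted p up to 0.0788, 0.112 and 0.0798. Under median-of-ratios scaling its adjusted p was 0.67, 0.678, 0.0718 and 0.079 at the 4 times, and with quantile normalization 0.0614 at 1 h and 0.0625 at 2 h, with the log2 change still negative.

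Rpsa, which doubles as the 67-kDa laminin receptor, was called lower at 2 and 6 h. It shared 31.1% of its 100-base stretches with 10 pseudogenes. At 6 h it had 131, 154, 143 and 147 RPKM in dKO, against 214, 184, 215 and 207 RPKM in WT, with no overlap (log2 change -0.51 ± 0.10, limma adjusted p = 0.000873). At 0 h it had 179, 162, 206 and 160.1 RPKM in dKO and 203, 205, 219 and 182 RPKM in WT, which overlapped (log2 change -0.20 ± 0.10, adjusted p = 0.3). The call at 2 h (-0.36, adjusted p = 0.018) was lost without any one of dKO replicate 4, WT replicate 2 and WT replicate 3 (adjusted p = 0.0775, 0.0518 and 0.0671), and with quantile normalization (0.175). Under median-of-ratios scaling its adjusted p at 6 h was 0.0707 and the log2 change at 0 h was 0.01, on the other side of 0. Rps6, Rps7, Rps27l, Rpsa and Rpl34 were all called at 6 h in the deposited scaling. At that time the dendritic cell, macrophage and granulocyte marker sums given above did not overlap between the genotypes either. The part of these cell types in the calls was not tested.

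**Figure D4:**
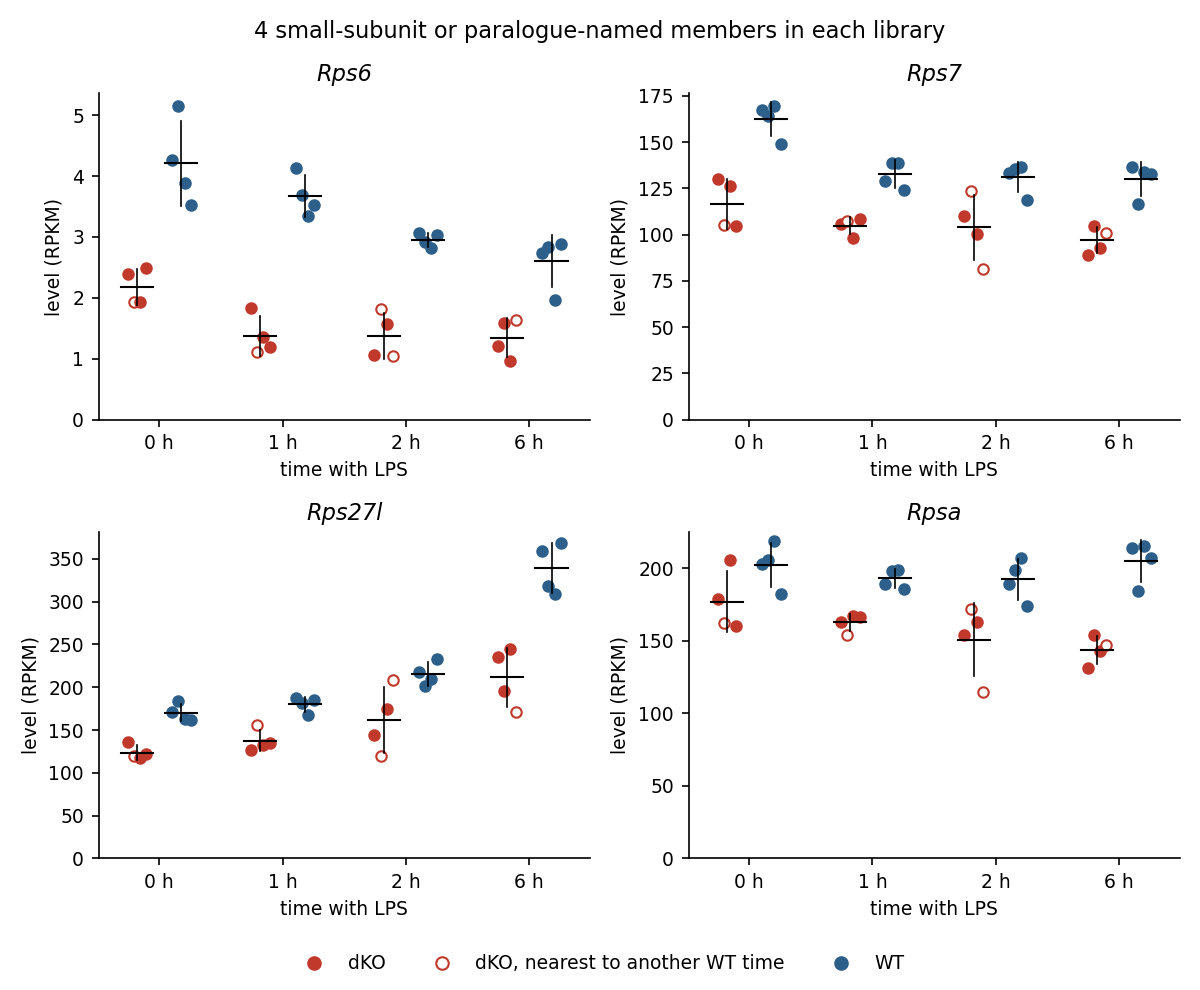
Level of Rps6, Rps7, Rps27l and Rpsa (RPKM, linear axes from 0) in each library by time with LPS, dKO in red left of WT in blue. Open points are the dKO libraries nearest to another WT time, black lines are means and vertical lines SD of 4 libraries. At 6 h all dKO values lie below all WT values for the 4 genes, and Rps27l is highest at 6 h in both genotypes.

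Rpl34, a large-subunit gene, was called lower at 2 and 6 h. At 6 h it had 5.34, 7.50, 5.91 and 7.65 RPKM in dKO, against 14.5, 15.3, 11.8 and 18.1 RPKM in WT (log2 change -1.12 ± 0.25, limma adjusted p = 0.00283). At 0 h the groups overlapped, at 7.65 ± 2.30 RPKM in dKO and 8.29 ± 1.35 RPKM in WT. Its entry covers 196 of 480 transcript bases. Rpl34 shared 31.0% of its 100-base stretches with 5 pseudogenes. The pseudogene Rpl34-ps1 held 50.6% of its 50-base stretches and has an entry of its own, of 12 measured bases. That entry averaged 64.1 RPKM in dKO 0 h, 68.5 RPKM in WT 0 h, 67.3 RPKM in dKO 6 h and 80.9 RPKM in WT 6 h. The part of read placement in the Rpl34 calls was not tested. Rpl26 was called lower at 2 h only (-1.01, adjusted p = 0.0384), on an entry of 23 of 526 transcript bases with 17 to 22 aligned bases in each dKO library and 24 to 98 in each WT library. It was lost on leaving out any one of 6 libraries (adjusted p up to 0.13), and the Rpl34 call at 2 h on leaving out any one of 5 (up to 0.15).

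Members called higher in dKO changed by less. At 1 h they included the large-subunit gene Rpl36 (0.33, limma adjusted p = 0.0469), Rps28 (0.28), Rplp0 of the stalk, where elongation factors dock (0.27), and Rps21 (0.26), all on the log2 scale. Rplp0 had 832, 853, 825 and 841 RPKM in dKO 1 h, against 677, 723, 720.3 and 668 RPKM in WT 1 h, with no overlap. Each of these 4 calls was lost when any one of 6 to 8 single libraries was left out (highest adjusted p 0.0996 to 0.202), and none held with quantile normalization. With median-of-ratios scaling 19 members were called higher at 1 h, these 4 among them. There the median log2 change was 0.29 for the members and -0.002 for all tested genes. The share of all genes called higher with this scaling is not given here. At 2 h Rps3a (0.31), Rps4x (0.26) and Rpl23 (0.25) were called higher, each lost without any one of 3 to 5 libraries and with median-of-ratios scaling. Quantile normalization kept these calls. Rpl23, a large-subunit protein that binds MDM2, had 203, 259, 203 and 188 RPKM in dKO 2 h and 181, 175, 177 and 179 RPKM in WT 2 h. Without the 5 libraries near another time it was the only member called higher at all 4 times, with log2 changes of 0.12, 0.13, 0.19 and 0.16.

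The paralogue-named members were mixed. Rpl22l1, whose protein stands in for RPL22, had 37.6, 33.4, 29.5 and 37.8 RPKM in dKO 0 h, against 46.0, 44.0, 44.2 and 45.9 RPKM in WT 0 h. The groups did not overlap, and the change missed the call (-0.38 ± 0.13, limma adjusted p = 0.0631). Without the 5 libraries near another time it was called lower at 0 h (adjusted p = 0.00303), 1 h and 6 h. Rpl3l, the muscle paralogue of Rpl3, averaged 1.41 ± 0.501 RPKM in dKO 0 h and 1.95 ± 0.283 RPKM in WT 0 h, and was called at no time in either fit (-0.38 at 0 h, adjusted p = 0.428). Rpl39l, the testis paralogue of Rpl39, stayed at or below 2.38 RPKM in all libraries.

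With LPS, RPKM of most members fell in both genotypes, and by less than that of the median gene, in the deposited scaling. After 1, 2 and 6 h in dKO cells, 7, 37 and 63 of the 82 members were called, of which 0, 1 and 1 were higher, where 49.9%, 62.9% and 74.9% of all tested genes were called. In WT cells 32, 58 and 57 members were called, 0, 1 and 2 of them higher, beside 52.3%, 79.7% and 75.8% of all genes. Of all genes 5.82%, 9.17% and 14.7% were called higher in dKO and 44.1%, 53.8% and 60.2% lower. In WT the shares were 6.84%, 11.2% and 14.9% higher and 45.5%, 68.5% and 60.9% lower. The median log2 change of the members was -0.15, -0.21 and -0.34 in dKO and -0.22, -0.28 and -0.30 in WT. All tested genes had medians of -0.41, -0.48 and -0.62 in dKO and -0.42, -0.73 and -0.65 in WT. Small- and large-subunit members had medians of -0.30 and -0.35 in dKO at 6 h and -0.30 and -0.30 in WT at 6 h. Called lower were 25 of 32 small-subunit and 31 of 42 large-subunit members in dKO at 6 h, and 10 and 22 in dKO at 2 h, a difference that was not tested. In dKO the counts at 1 and 2 h rest on single libraries: the 7 became 2 without any one of dKO 0 h replicates 1, 3 and 4 and dKO 1 h replicate 2, and 17 without dKO 0 h replicate 2, and the 37 became 4 to 21 without any one of dKO 0 h replicates 1 and 3 and dKO 2 h replicates 1, 3 and 4, and 65 without dKO 2 h replicate 2. In WT the 32 at 1 h became 15 to 21 without any one of WT 0 h replicate 3 and WT 1 h replicates 1 and 4. Without the 5 libraries the counts were 43, 60 and 71 in dKO (77.3%, 86.1% and 87.3% of all genes) and 59, 65 and 61 in WT (79.7%, 89.2% and 88.1%).

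The direction of this change depends on the scaling. Median-of-ratios scaling, which sets the median gene to no change, turned the median of the members positive, at 0.31, 0.29 and 0.31 in dKO and 0.25, 0.51 and 0.38 in WT, and made 33, 34 and 42 members in dKO and 16, 69 and 58 in WT higher after LPS. Quantile normalization kept the medians of the members negative (-0.39 in dKO at 6 h and -0.24 in WT at 6 h), with 6 higher and 54 lower in dKO and 9 higher and 43 lower in WT. At each time these medians then lay below the median of all tested genes, which was -0.11 in dKO and -0.08 in WT at 6 h. In the deposited scaling they lay above it. With median-of-ratios scaling the medians of all tested genes were 0.02, -0.03 and -0.05 in dKO and 0.03, -0.02 and -0.03 in WT. Shares of all genes called under these other scalings are not given here, so the counts of members have no background beside them. The members together took 5.56 ± 0.376%, 4.85 ± 0.0718%, 4.80 ± 0.780% and 4.45 ± 0.141% of the summed RPKM of a library at 0, 1, 2 and 6 h in dKO, and 5.38 ± 0.176%, 4.60 ± 0.182%, 4.33 ± 0.108% and 4.44 ± 0.0707% in WT (SD, n = 4 each). A share of this kind is the same under any factor applied to a whole library.

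**Figure D5:**
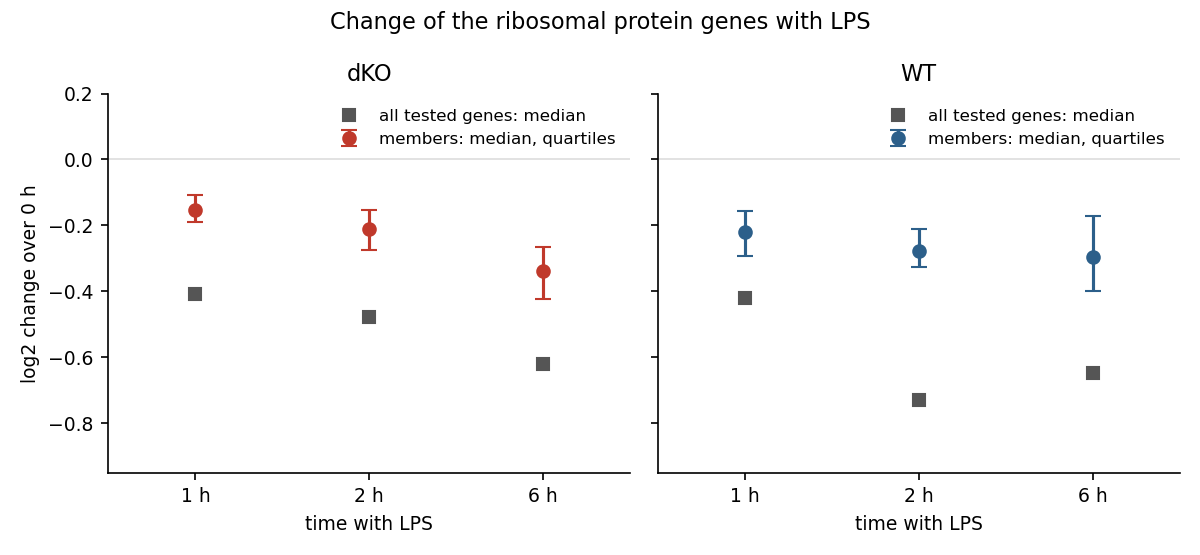
Log2 change over 0 h (y axis) after 1, 2 and 6 h of LPS (x axis), in dKO (left) and WT (right). Circles are the median of 82 members with quartiles as bars, and squares the median of all 11154 tested genes, from RPKM without further scaling. The members lie above the median gene at each time, at -0.34 against -0.62 in dKO 6 h and -0.30 against -0.65 in WT 6 h.

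Single members stood apart from the rest. Rps27l rose in both genotypes: it averaged 212 ± 34.6 RPKM in dKO 6 h and 124 ± 8.47 RPKM in dKO 0 h (log2 change 0.76 ± 0.12, limma adjusted p = 1.16e-05), and 339 ± 29.2 RPKM in WT 6 h and 170.2 ± 9.76 RPKM in WT 0 h (0.99 ± 0.12, adjusted p = 2.43e-07). No 6 h library of either genotype overlapped with its 0 h libraries. It was the only member called higher at 6 h in both genotypes, and it was called with all 3 scalings. Rpl34 was called higher in WT at 6 h (0.81 ± 0.25, adjusted p = 0.00589), where it had 14.5, 15.3, 11.8 and 18.1 RPKM, against 7.29, 8.43, 10.1 and 7.27 RPKM at 0 h. In dKO its change at 6 h was -0.17 ± 0.25 (adjusted p = 0.547).

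Among the larger falls was that of Rpl7l1. This gene, named after Rpl7 and known in yeast and human for a part in pre-ribosome maturation, had 8.12, 7.99, 9.56 and 12.9 RPKM in dKO 6 h, against 21.6, 13.9, 19.6 and 22.3 RPKM in dKO 0 h (-0.97 ± 0.17, limma adjusted p = 2.3e-05). In WT it had 10.8, 10.2, 10.4 and 11.6 RPKM at 6 h, against 24.6, 23.1, 22.6 and 22.9 RPKM at 0 h (-1.08 ± 0.17, adjusted p = 4.13e-06). The WT libraries were apart, and so were the dKO libraries. Both falls were still called under median-of-ratios scaling (log2 change -0.35 in dKO and -0.41 in WT) and with quantile normalization (-0.56 and -0.64). Rpl15, a large-subunit gene, averaged 4.05 ± 0.638 RPKM in dKO 6 h and 7.60 ± 0.974 RPKM in dKO 0 h (-0.83 ± 0.18), and 3.50 ± 0.564 RPKM in WT 6 h and 8.12 ± 0.884 RPKM in WT 0 h (-1.11 ± 0.18). Rpl3l averaged 0.432 ± 0.271 RPKM in dKO 6 h and 1.41 ± 0.501 RPKM in dKO 0 h (-1.06), and 0.654 ± 0.214 and 1.95 ± 0.283 RPKM in the same WT groups (-1.10). Rps29 fell in WT by 6 h (-1.04 ± 0.27, adjusted p = 0.00114) to 1.29 ± 0.459 RPKM, against 3.18 ± 0.916 RPKM at 0 h, and Rps23, on 54 measured bases, in dKO by 6 h (-1.11 ± 0.28, adjusted p = 0.00108). Each was called lower at 6 h in the other genotype too. With median-of-ratios scaling the calls of Rps29 in WT and Rps23 in dKO were lost (adjusted p = 0.139 and 0.0659), as was that of Rpl15 in dKO (0.174). With quantile normalization those of Rps29 in WT, Rps23 in dKO, Rpl3l and, in dKO, Rpl15 were lost too, all still negative.

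Of the 3 members with the highest RPKM, Rplp1, an acidic stalk protein gene, had 921, 1031, 904 and 1096 RPKM in dKO 6 h, against 1246, 1240.0, 1749 and 1299.5 RPKM in dKO 0 h (log2 change -0.47), and 945, 899, 1027 and 1026 RPKM in WT 6 h, against 1218, 1246, 1292 and 1139 RPKM in WT 0 h (-0.33). Rpl32 of the large subunit had 983, 957, 972 and 967 RPKM in WT 6 h, against 1245, 1274, 1244 and 1181 RPKM in WT 0 h (-0.35). In both genes the 6 h and 0 h libraries of a genotype did not overlap. Both were called lower, also with quantile normalization, whereas with median-of-ratios scaling both were called higher in WT (0.36 for Rplp1 and 0.34 for Rpl32) and changed by 0.17 and 0.25 in dKO without a call.

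Rpl3 itself fell with LPS in the deposited scaling. In WT, where its level is far above the low values that the pseudocount affects, its log2 change was -0.74 ± 0.22 at 6 h (limma adjusted p = 0.00364), to 38.7 ± 1.47 RPKM, against 64.9 ± 0.911 RPKM at 0 h. In dKO the residual level changed by -1.25 ± 0.22 (adjusted p = 2.17e-05), to 0.566 ± 0.232 RPKM, against 2.05 ± 0.591 RPKM at 0 h. These dKO levels lie near the pseudocount of 0.5 and rest on 711 to 2204 aligned bases at 6 h. The dKO change under the other scalings is not given here. The WT change was -0.05 (adjusted p = 0.8) under median-of-ratios scaling and with quantile normalization -0.67.

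No member passed the test for a different LPS response of the genotypes at 1, 2 or 6 h with all libraries, where 0.0359%, 0.305% and 0.923% of all tested genes were called (0.0179%, 0.134% and 0.574% higher, 0.0179%, 0.17% and 0.35% lower). By limma, 2, 0 and 2 members had an unadjusted p below 0.05 at these times. Without the 5 libraries near another time 0, 0 and 2 of the 80 members besides Rpl3 and Rpl29 were called by limma (1.8%, 5.62% and 20.3% of all genes), Rpl34 and Rpsa at 6 h, and 3, 5 and 14 had an unadjusted p below 0.05. For Rpl34 the response in dKO minus that in WT was -1.0022 on the log2 scale without these libraries and -0.98 with them.

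Genes that work with the ribosomal proteins were read from lists drawn from general knowledge of the pathway. Of 30 ribosome biogenesis genes, 0 were called between the genotypes at any time by limma with all libraries (0, 1, 2 and 0 had an unadjusted p below 0.05 at 0, 1, 2 and 6 h). Without the 5 libraries near another time 0, 3, 4 and 11 were called lower and 0, 0, 1 and 0 higher, beside the 19.4%, 29.4%, 23.8% and 33.0% of all genes that were lower. After 6 h of LPS 28 were called lower in dKO and 29 in WT, beside 60.2% and 60.9% of all genes, with median log2 changes of -1.48 and -1.65. Fbl, the methyltransferase of ribosomal RNA, averaged 5.62 ± 3.17 RPKM in dKO 6 h and 15.1 ± 1.84 RPKM in dKO 0 h, and 5.11 ± 0.618 RPKM in WT 6 h and 17.8 ± 1.71 RPKM in WT 0 h. Ncl, nucleolin, fell by 0.65 in dKO and 0.92 in WT on the log2 scale, though with median-of-ratios scaling its change in dKO was -0.02 and not called. With median-of-ratios scaling 20 of them in dKO and 24 in WT were still called lower at 6 h (medians -0.90 and -1.04), where the medians of the members were positive. The median of all tested genes was then -0.05 in dKO and -0.03 in WT. The share of all genes called lower with this scaling is not given here.

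The 16 elongation factor and other mRNAs that begin with the same pyrimidine run gave 11 lower and 1 higher in dKO at 6 h and 12 lower and 1 higher in WT, beside the 60.2% and 60.9% of all genes that were lower, with medians of -0.32 and -0.32. Eef1a1, which brings tRNA to the ribosome, had log2 changes of -0.29 ± 0.08 in dKO and -0.29 ± 0.08 in WT. Median-of-ratios scaling turned the medians of this list positive, to 0.31 and 0.33, and Eef1a1 to 0.36 and 0.40. Of 10 regulators, 8 in dKO and 7 in WT were lower and 1 and 2 higher at 6 h. Between the genotypes 1 was called at 2 h and 1 at 6 h with all libraries, both lower in dKO. A count of 1 in 10 is near the shares of all genes called lower at these times, given above with the members. Mtor, the kinase itself, had 11.1, 11.2, 11.8 and 5.02 RPKM in dKO 6 h, against 18.4, 16.7, 17.4 and 20.5 RPKM in WT 6 h, with no overlap (log2 change -0.93 ± 0.22, limma adjusted p = 0.00355). The lowest dKO value is that of replicate 4, one of the 5 libraries near another time, and the change was -0.65 without it (adjusted p = 0.024). Rptor, a subunit of its complex, averaged 7.10 ± 2.17 RPKM in dKO 2 h and 10.7 ± 0.771 RPKM in WT 2 h (-0.61 ± 0.16, adjusted p = 0.0102), and its change was -0.38 without dKO replicate 4 (adjusted p = 0.0468). Both were called with all 3 scalings. Of the 10, 3, 3, 4 and 5 were, without the 5 libraries, called lower at the 4 times, and 1 was called higher, at 2 h. The shares of all genes called lower in that fit are given above with the biogenesis genes. Larp1, which binds the pyrimidine start and holds such mRNAs back from translation, averaged 72.0 ± 8.63 RPKM in dKO 6 h and 27.2 ± 2.13 RPKM in dKO 0 h (log2 change 1.38 ± 0.25, limma adjusted p = 2.77e-05), and 61.9 ± 1.48 and 26.4 ± 0.574 RPKM in the same WT groups (1.22 ± 0.25, adjusted p = 9.58e-05). Myc, a transcription factor that drives ribosome production, fell to 1.46 ± 0.352 RPKM in dKO 6 h, against 15.4 ± 5.26 RPKM in dKO 0 h, and to 1.46 ± 0.462 RPKM in WT 6 h, against 17.1 ± 1.39 RPKM in WT 0 h (log2 changes -2.96 ± 0.47 and -3.19 ± 0.47). Of the ribosomal proteins whose symbols do not have the form of the members, Fau, Rpl36al and Gnb2l1 had log2 changes of dKO over WT between -0.08 and 0.23 at the 4 times (limma adjusted p = 0.14 to 0.971). Gnb2l1 was, without the 5 libraries, called higher in dKO at 0, 1 and 2 h (0.17, 0.17 and 0.16) and Fau at 1 h (0.24). At 6 h of LPS Rpl36al was called lower in dKO (-0.65 ± 0.13) and WT (-0.67 ± 0.13), and so was Gnb2l1 (-0.43 ± 0.09 in dKO and -0.41 ± 0.09 in WT). Under median-of-ratios scaling Gnb2l1 changed by 0.22 in dKO (adjusted p = 0.0823) and 0.28 in WT (adjusted p = 0.0282), and Rpl36al lost its calls (adjusted p = 0.99 in dKO and 0.898 in WT).

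The start of the members' genes was read in the RefSeq promoter table (GRCm38.p6), which held 63 of the 84 members and neither Rpl3 nor Rpl29. Touching the stretch from 10 bases before to 10 bases after the annotated start, a run of at least 7 pyrimidines was found in 49.2% of these members, against 20.1% of all 27025 promoters, and a run of at least 10 in 31.7% against 6.98%. The letters CCGGAAG, the core bound by ETS factors, stood on either strand within 250 bases before to 50 bases after the start in 39.7% of the members and in 9.12% of all promoters, and TATAAA in 9.52% against 14.2%. AAGATGG, part of the YY1 site, was found in 14.3% against 6.48%, CTTTCC in 47.6% against 26.3%, and CTTTTC in 25.4% against 21.8%. The windows from 40 bases before to 20 bases after the start are shown for 5 members whose level differed between groups, with the longest such pyrimidine run in capitals (in Rps7 the first of 3 of equal length), 5′ to 3′ on the strand of the gene.
Rps6 (chr4:86857348-86857407, minus strand): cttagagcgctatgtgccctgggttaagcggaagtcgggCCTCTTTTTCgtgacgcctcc
Rps7 (chr12:28635934-28635993, minus strand): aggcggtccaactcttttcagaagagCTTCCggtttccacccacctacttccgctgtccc
Rps27l (chr9:66946046-66946105, plus strand): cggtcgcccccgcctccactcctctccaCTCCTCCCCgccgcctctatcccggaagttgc
Rpl34 (chr3:130730379-130730438, minus strand): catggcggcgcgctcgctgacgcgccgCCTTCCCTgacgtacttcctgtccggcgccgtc
Rpl15 (chr14:18270967-18271026, minus strand): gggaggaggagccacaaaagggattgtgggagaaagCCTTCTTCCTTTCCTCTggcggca
The run was 10 bases in Rps6, 5 in Rps7, 9 in Rps27l, 8 in Rpl34 and 17 in Rpl15. These letters describe the windows, and no binding or regulation was measured here.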

How the data were processed

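RNA of 32 samples, 4 for each of 2 genotypes and 4 times with LPS, was sequenced after a TruSeq RNA preparation from 4 µg of total RNA, per the labels. The authors deposited RPKM per gene, with a second value per gene named signal, and the submitters' processing notes name CASAVA 1.8.2 and build mm9. The deposited signal column was found from its values to hold aligned bases, and its ratio to RPKM gave the length measured for each entry. How reads with several matches were placed is not given in the sources used here. The tables held 22308 entries, of which 92 spike-ins were left out. No read counts were used, so no count test was run, and 1.27 to 1.87 Gb per library limit the precision of low genes.

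Tests were made with limma 3.58.1 in R 4.3.3 on log2(RPKM + 0.5) for the 11154 genes with at least 1 RPKM in at least 4 libraries, in 1 fit of 8 group means, with Benjamini-Hochberg adjustment over all tested genes and two-sided p-values. Fold changes are on that scale, which understates changes of low genes. Scripts were tested on simulated data. Shared stretches of 100 and 50 bases were counted in GENCODE M21 transcripts (GRCm38), which is another build than mm9, so coordinates of each are given as such. Other tools were Python 3.11.15, numpy 2.4.6, pandas 2.3.3, scipy 1.17.1 and matplotlib 3.10.9.

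Members and gene lists were chosen with earlier results of these data known. Named members were Rpl3, Rpl29, the paralogue-named ones, the 10 highest and 10 lowest called in a comparison, those called at all 4 times, and the 3 most and least abundant, and of these the ones that a result turns on are given. Rplp1 and Rpl32 were followed under the other scalings after their values were seen. Alternatives were the pseudocount, median-of-ratios and quantile scaling, the filter, a fit of the compared groups alone, the replicate number as a block, and leaving out libraries. Results for a few single genes are not reported here.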

Additional observations from a re-analysis of the deposited data

Results flagged for a closer look

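Of 112 groups of 4 libraries examined for a library far from the others, 2 held one, where chance alone picks out a small part of such groups. Rps6 in WT 6 h replicate 3 was at 1.972 RPKM, against 2.736 to 2.881 RPKM in the other WT 6 h libraries. Rps7 in WT 2 h replicate 4 was at 118.9 RPKM, against 133.5 to 136.5 RPKM in the other WT 2 h libraries.

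Without the 5 dKO libraries nearest to another WT time, the LPS response differed between the genotypes in a test of the difference itself by limma for Rpl34 (-1.0022, dKO response minus WT response on the log2 scale, adjusted p = 0.0276) and Rpsa (-0.36, adjusted p = 0.0206) at 6 h. With all libraries 0 members passed this test by limma, where 2 had an unadjusted p below 0.05 at 6 h. In the fit without the 5 libraries the share called at 6 h was larger among all tested genes, given above, than among the members. The libraries left out were picked from these same data, so the adjusted p of that fit can be too small.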

How the results depend on the processing

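Counts of called members that moved by more than 1.5 times are as follows. They include Rpl3 and Rpl29, which were picked for their low dKO level. Apart from the fit without the 5 libraries, the shares of all genes called under these settings are not given here. Median-of-ratios scaling gave 3 (0 higher, 3 lower) for dKO against WT at 0 h, 22 (19 higher, 3 lower) at 1 h and 7 (0 higher, 7 lower) at 2 h. It gave 34 after 1 h of LPS in dKO (33 higher) and 16 in WT (16 higher). Quantile normalization gave 32 in dKO at 1 h of LPS. A fit of the compared groups alone gave 2 for dKO against WT at 2 h, 1, 0 and 35 for 1, 2 and 6 h of LPS in dKO (for the 0 by limma, 1 member had an unadjusted p below 0.05) and 60 for 1 h in WT, and Rps6 at 2 h then had an adjusted p of 0.1. The replicate block gave 6 for dKO against WT at 1 h and 16 for 2 h of LPS in dKO, and left the other counts within 1.5 times. Replicate numbers were not taken to pair the samples: deviations of same-numbered libraries correlated above 0.1 in 1 of 16 pairs of dKO and WT libraries, 5 of 24 within dKO and 16 of 24 within WT, and in 2, 3 and 2 of 4 pairs for WT 1, 2 and 6 h with WT 0 h. As a hint from the data, 7, 8 and 6 of the 8 WT libraries of these comparisons correlated best with their own number, and 4, 1, 3 and 3 of 8 between the genotypes. Without the 5 libraries near another time the counts were 10, 26 and 19 for dKO against WT at 0, 1 and 6 h, 43 and 60 for 1 and 2 h of LPS in dKO, 59 for 1 h in WT, and 1, 1 and 3 for the difference of the responses, with Rpl3, picked for its dKO level, as 1 of them at each time.

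The medians of the members turned their sign with median-of-ratios scaling: 0.14 for dKO against WT at 6 h, 0.31, 0.29 and 0.31 for LPS in dKO, 0.25, 0.51 and 0.38 in WT, and -0.22 for the difference of the responses at 2 h. Rpsa at 0 h had 0.0079 there. This scaling moved the median of all genes to near 0 by its construction, and causes of the other changes were not tested.

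Leaving out 1 library at a time gave 4 to 5, 3 to 6, 5 to 19 and 7 to 8 members for dKO against WT at 0, 1, 2 and 6 h, with Rpl3 and Rpl29 counted too. It gave 2 to 17, 4 to 65 and 56 to 67 for LPS in dKO, and 15 to 35, 49 to 59 and 49 to 55 in WT. The libraries behind the larger moves are named beside the counts in the results. The difference of the responses stayed at 0 to 0. Medians turned sign without dKO 2 h replicate 2 (-0.0269, difference at 2 h) and without dKO 6 h replicate 3 (0.0126, dKO against WT at 6 h, where the range was -0.0402 to 0.0126). Entries of few measured bases, such as Rpl26, limit what depth can show.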
